A study of Homo sapiens with 4 samples.

Results

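The transcription factors that establish and maintain the red cell program were read in RNA-seq of 4 libraries that carry the label NB4, a human line of acute promyelocytic leukemia, 2 of them controls with CEBPG present and 2 with CEBPG knockdown. The set was chosen by name as 10 genes, GATA1, GATA2, ZFPM1, TAL1, LYL1, LMO2, KLF1, GFI1B, NFE2 and BCL11A. The first 9 were measured, in 19 RefSeq transcripts, among 16504 gene symbols, and all 9 were among the 10968 genes that passed the filter on low values. BCL11A was not analysed here. In the study methods both groups were infected with lentiviral short hairpin RNA (shRNA) vectors, and stable lines were selected with puromycin. The knockdown label carries the number 3, read here as the third CEBPG shRNA of the study, so the knockdown group rests on a single hairpin. Nothing in the labels says that the 2 libraries of a group came from separate cultures, so the p-values measure only the spread between these libraries, which may be technical.

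As background, red cell development is directed by a small network of factors that bind DNA together. GATA2 acts early in blood progenitors and is replaced on many sites by GATA1 as cells turn erythroid. GATA1 works with its cofactor ZFPM1 (also called FOG1) and in a complex in which the basic helix-loop-helix factor TAL1, or its relative LYL1, is joined through the bridging proteins LMO2 and LDB1. KLF1 activates adult globin and membrane genes, GFI1B represses genes of other lineages, and NFE2 binds the globin locus control region with a small MAF protein.

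The promoters of 5 of these genes are given here, because 3 of them (TAL1, GFI1B and ZFPM1) belong to the genes called higher in the knockdown, while KLF1 and LYL1 carry GATA motifs and were not called. Each is the 250 bases before a RefSeq transcript start (RefSeq, GRCh38.p14), written 5' to 3' on the strand of the gene. Capitals mark the word AGATAA, searched with A or T as its first letter and A or G as its last, which GATA factors are known to bind, on either strand.
TAL1 promoter, chr1:47232336-47232585, minus strand: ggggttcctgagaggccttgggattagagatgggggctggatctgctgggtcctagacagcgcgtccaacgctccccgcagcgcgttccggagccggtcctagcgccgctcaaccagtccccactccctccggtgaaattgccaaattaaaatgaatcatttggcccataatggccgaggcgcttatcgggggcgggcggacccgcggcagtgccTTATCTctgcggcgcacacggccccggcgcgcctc
GFI1B promoter, chr9:132978444-132978693, plus strand: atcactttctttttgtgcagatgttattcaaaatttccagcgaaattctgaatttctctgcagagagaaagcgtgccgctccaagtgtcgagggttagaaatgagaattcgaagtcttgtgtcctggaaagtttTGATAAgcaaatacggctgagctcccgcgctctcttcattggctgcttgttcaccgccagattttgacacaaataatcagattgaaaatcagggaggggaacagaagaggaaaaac
ZFPM1 promoter, chr16:88453030-88453279, plus strand: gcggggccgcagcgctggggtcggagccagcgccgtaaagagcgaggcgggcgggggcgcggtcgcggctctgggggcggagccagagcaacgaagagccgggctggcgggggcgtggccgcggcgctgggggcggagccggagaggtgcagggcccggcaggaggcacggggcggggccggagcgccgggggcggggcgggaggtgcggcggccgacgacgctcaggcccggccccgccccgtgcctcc
KLF1 promoter, chr19:12887202-12887451, minus strand: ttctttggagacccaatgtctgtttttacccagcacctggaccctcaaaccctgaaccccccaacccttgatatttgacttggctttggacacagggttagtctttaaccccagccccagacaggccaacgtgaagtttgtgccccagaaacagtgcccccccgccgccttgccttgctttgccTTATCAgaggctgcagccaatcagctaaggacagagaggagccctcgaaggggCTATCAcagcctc
LYL1 promoter, chr19:13102859-13103108, minus strand: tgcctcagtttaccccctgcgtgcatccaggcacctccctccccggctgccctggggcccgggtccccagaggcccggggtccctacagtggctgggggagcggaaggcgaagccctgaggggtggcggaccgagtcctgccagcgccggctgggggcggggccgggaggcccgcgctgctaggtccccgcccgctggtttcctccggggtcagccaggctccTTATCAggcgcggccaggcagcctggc

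Of the 10 promoter windows that the table held for 7 of the 9 genes, 4 contained a GATA word, in TAL1, GFI1B, KLF1 and LYL1, against 22.3% of 35116 promoter windows of the same length. KLF1 held 2 such words, and each of the other 3 held 1. The ZFPM1 window held none. It had a GC content of 83.2%, against a median of 58% for all windows, and it contained the word CCNCNCCC, a KLF-type motif, at 9 positions on either strand, some of which overlap. That word was present in 7 of the 10 windows and in 53.4% of all. The E-box words CAGATG or CAGCTG, bound by TAL1-type factors, were in 3 of the 10 windows, both GFI1B windows and 1 of GATA2, and in 24.3% of all. The word TGATGNAA, at which CEBP and ATF proteins are known to bind as pairs, was in 0 of the 10 windows and in 3.14% of all. The palindrome-like CEBP word TTGCNNAA was in 2 of the 10, both of TAL1, and in 9.05% of all. These matches are letters in a short window and were not tied to binding in these cells.

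The targeted gene was lower in the knockdown. CEBPG measured 17.1 and 18.1 FPKM in the controls against 6.91 and 7.96 FPKM in the knockdown, where FPKM counts fragments relative to exon length and to all mapped reads. Library sums of FPKM ranged from 345340 to 366139, and read depth was unknown, so no interval for counting error could be given. The values went against the cell line label. Of 20 erythroid marker genes, 14 were over 10 FPKM and 4 were under 1 FPKM in every library. The summed level of the 20 ranged from 8133 to 8571 FPKM in the controls and from 9012 to 9552 FPKM in the knockdown. Of the 7 promyelocytic granule markers measured, 4 were under 1 FPKM in every library, among them AZU1 and PRTN3, and the sum of the 7 ranged from 32.5 to 36.4 FPKM over all 4 libraries. Of the 11 myeloid surface markers and regulators measured, 8 were under 1 FPKM in every library, among them ITGAM, CD14 and CSF3R. SPI1 was at 15.2 to 17.2 FPKM and CD33 at 4.31 to 9.77 FPKM. Of the 6 lymphoid markers measured, 5 were under 1 FPKM in every library, and CD3D, at 32.3 and 33.3 FPKM in the controls and 66.95 and 56.3 FPKM in the knockdown, made up nearly all of that sum. Of the 6 megakaryocyte markers measured, 3 were under 1 FPKM in every library. The libraries are therefore named here by their labels only.

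**Figure D1:**
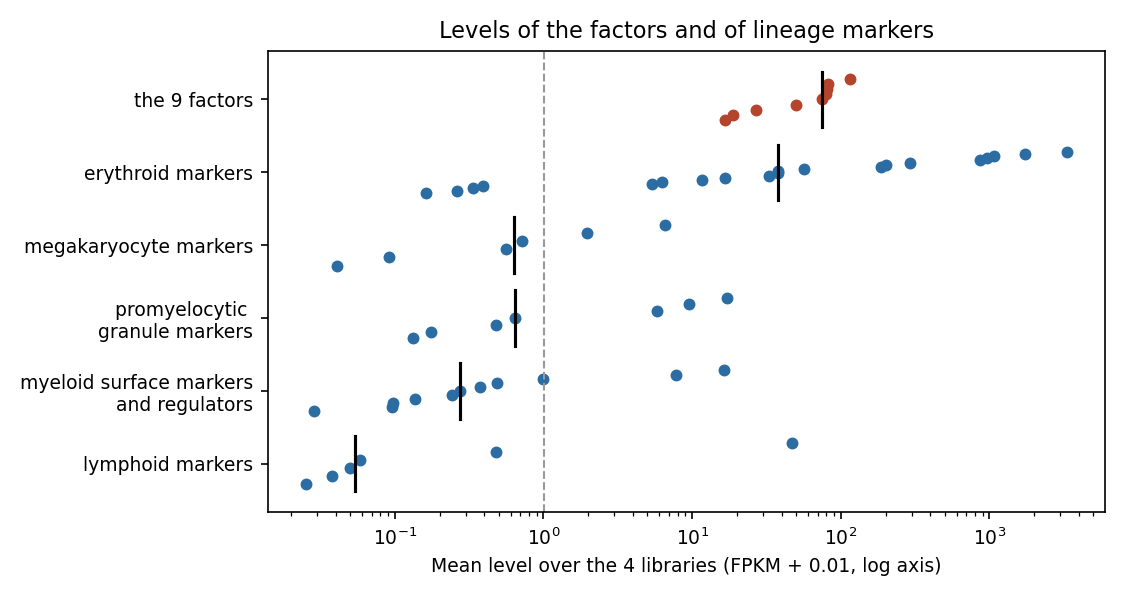
Mean FPKM over the 4 libraries (log axis, 0.01 FPKM added) for the 9 erythroid transcription factors and for marker lists of 5 lineages, with a point per gene, a black bar at each list median and a dashed line at 1 FPKM. All 9 factors lie between 16.5 and 116 FPKM, while the list medians of megakaryocyte, granule, myeloid and lymphoid markers lie under 1 FPKM.

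All 9 factors were expressed well above the filter. The mean over the 4 libraries ran from 16.5 FPKM for ZFPM1 to 116 FPKM for GATA1. GATA1 ranked 460th of the 10968 tested genes by mean FPKM, and ZFPM1 ranked 3776th. In the control libraries the order of mean levels, which are per length and so comparable between genes, was GATA1 at 120.4 ± 11.2 FPKM (SD, n = 2), LYL1 at 79.7 ± 5.15, KLF1 at 78.9 ± 9.72, GATA2 at 76.3 ± 4.74, NFE2 at 75.4 ± 5.35, GFI1B at 43.4 ± 0.412, TAL1 at 22.9 ± 1.98, LMO2 at 18.2 ± 0.954 and ZFPM1 at 13.8 ± 0.21 FPKM. LYL1, KLF1, GATA2 and NFE2 overlapped their neighbours in this order between the 2 control libraries, so these 4 could not be ranked. GATA1 stood above them, and GFI1B, TAL1, LMO2 and ZFPM1 followed without overlap between neighbours.

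**Figure D2:**
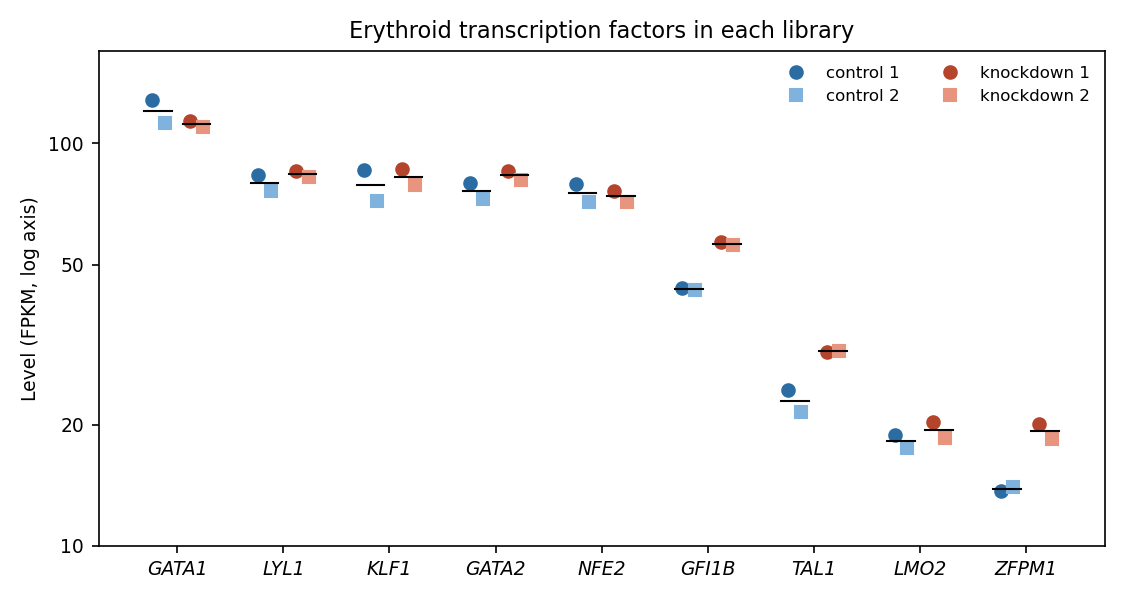
FPKM (log axis) of each factor in control 1, control 2, knockdown 1 and knockdown 2, with bars at the group means and genes in order of their control mean. Both knockdown points lie above both control points for GATA2, GFI1B, TAL1 and ZFPM1, and the groups overlap for the other 5 genes.

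To address whether these factors depend on CEBPG, limma was fitted to all tested genes on the log2(FPKM + 1) scale, knockdown against control, with Benjamini-Hochberg adjustment. Of the 9 genes, 3 were called higher at an adjusted p under 0.05 (ZFPM1, TAL1 and GFI1B), 0 were called lower, and 6 were not called. Over all tested genes 20.9% were called, 10.9% higher and 9.99% lower. At an unadjusted p under 0.05 (limma) the count was again 3 of the 9, against 4057 of the 10968 tested genes. The median log2 fold change of the 9 was 0.086, against 0.015 for all tested genes. In 4 of the 9 genes the 2 groups did not overlap, each with both knockdown libraries above, while 64.8% of all tested genes had groups that did not overlap, 34.3% had both knockdown libraries above and 30.5% had both below. The calls were small in size, with knockdown means of 129.8% to 139% of the control means. In bulk RNA, more cells of a type and more RNA per cell cannot be told apart.

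ZFPM1, the multi-zinc-finger cofactor that binds GATA1 and GATA2 without binding DNA itself, had the highest log2 fold change of the 9. It measured 13.7 and 14.0 FPKM in the controls against 20.04 and 18.4 FPKM in the knockdown. The lower knockdown library was above the higher control, and the mean rose from 13.8 ± 0.21 to 19.2 ± 1.15 FPKM (SD, n = 2). This gave a log2 fold change of 0.45 (standard error 0.068) and a 95% confidence interval of 0.29 to 0.61 (limma, adjusted p = 0.00685). This call held at gene level when each library was left out in turn, but only narrowly without knockdown 1. The log2 fold changes of these refits were 0.39 to 0.51. ZFPM1 spans bases 88453280 to 88537031 of chromosome 16, plus strand (GENCODE 44, GRCh38), and was listed as 1 transcript, NM_153813. The ratio of ZFPM1 to GATA1, which does not depend on the scaling of a library, was 0.107 and 0.124 in the controls and 0.176 and 0.168 in the knockdown.

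TAL1, the helix-loop-helix factor at the centre of the LMO2 complex, measured 24.3 and 21.5 FPKM in the controls against 30.3 and 30.6 FPKM in the knockdown. The 2 knockdown values were close together and both above the controls. This gave a log2 fold change of 0.39 (standard error 0.073) and a 95% confidence interval of 0.22 to 0.57 (limma, adjusted p = 0.0134). Leaving out knockdown 1 gave 0.40 with an adjusted p of 0.0691 and leaving out knockdown 2 gave 0.39 with an adjusted p of 0.0688 (limma), so the call was lost without either of them. With no filter on low values the adjusted p was 0.0587 (limma). TAL1 spans bases 47216290 to 47232225 of chromosome 1, minus strand, and its exons overlap those of an unnamed long noncoding RNA gene on the other strand. The library kit named in the labels does not mark strand, so reads of the overlap cannot be divided.

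LYL1, the closest relative of TAL1, and LMO2, the LIM-domain bridge between them and the GATA factor, were not called. LYL1 was at 83.3 and 76.02 FPKM in the controls and at 85.4 and 82.3 FPKM in the knockdown, with a log2 fold change of 0.074 and a 95% confidence interval of -0.082 to 0.23 (limma, adjusted p = 0.452). The groups overlapped. LMO2 was at 18.9 and 17.5 FPKM in the controls and at 20.3 and 18.5 FPKM in the knockdown, with a log2 fold change of 0.086 and a 95% confidence interval of -0.089 to 0.26 (limma, adjusted p = 0.436). Here too the groups overlapped. Within each library the ratio of TAL1 to LYL1 was 0.292 and 0.283 in the controls and 0.355 and 0.371 in the knockdown. The ratio of TAL1 to LMO2 was 1.29 and 1.23 in the controls and 1.49 and 1.65 in the knockdown. These ratios, and the others given here, were chosen after the values had been seen, and with 2 libraries against 2 the exact permutation test cannot go below a 2-sided p of 0.333, which is the value each of them had.

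GFI1B, a zinc-finger repressor that recruits the histone demethylase KDM1A, had the smallest standard error of the 9. It measured 43.7 and 43.1 FPKM in the controls against 56.8 and 55.8 FPKM in the knockdown. The difference between the groups was larger than the spread between the libraries of either group. This gave a log2 fold change of 0.37 (standard error 0.055) and a 95% confidence interval of 0.24 to 0.50 (limma, adjusted p = 0.0065). Without knockdown 1 it was 0.36 with an adjusted p of 0.0609, and the call was lost, while without knockdown 2 it was 0.38 with an adjusted p of 0.0494 (limma). GFI1B spans bases 132944000 to 132991687 of chromosome 9, plus strand, and its annotated exons overlap those of TSC1 on the minus strand. TSC1 was at 2.42 and 2.77 FPKM in the controls and 2.58 and 2.43 FPKM in the knockdown, well below GFI1B. The ratio of GFI1B to GATA1 was 0.34 and 0.383 in the controls and 0.4998 and 0.508 in the knockdown.

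GATA1 and GATA2, the zinc-finger factors at the head of the network, were not called. GATA1 was at 128.3 and 112.5 FPKM in the controls and at 113.7 and 109.9 FPKM in the knockdown. Control 1 was the highest, and the other 3 libraries lay close together. The log2 fold change was -0.10 with a 95% confidence interval of -0.28 to 0.075 (limma, adjusted p = 0.36), and leaving out control 1 brought it to -0.0086. GATA2 was at 79.6 and 72.9 FPKM in the controls and at 85.3 and 81.3 FPKM in the knockdown. Both knockdown libraries lay above both controls, and the log2 fold change was 0.13 with a 95% confidence interval of -0.030 to 0.28 (limma, adjusted p = 0.211). Without control 2 it was 0.064. The ratio of GATA1 to GATA2 was 1.61 and 1.54 in the controls and 1.33 and 1.35 in the knockdown, so that the 2 groups did not overlap in the ratio although neither gene was called. GATA1 spans bases 48786540 to 48794311 of chromosome X, plus strand. GATA2 spans bases 128479427 to 128493201 of chromosome 3, minus strand, and its exons overlap those of the antisense gene GATA2-AS1, which was at 3.62 to 4.84 FPKM over the 4 libraries.

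KLF1, the activator of adult beta-globin, was at 85.8 and 72.02 FPKM in the controls and at 86.3 and 78.8 FPKM in the knockdown. The controls lay further apart than the group means, the groups overlapped, and the log2 fold change was 0.069 with a 95% confidence interval of -0.15 to 0.29 (limma, adjusted p = 0.632). Without control 2 the sign turned, to -0.056, and without control 1 it was 0.19. NFE2, the basic leucine-zipper subunit that pairs with small MAF proteins, was at 79.2 and 71.7 FPKM in the controls and at 76.2 and 71.5 FPKM in the knockdown. The groups overlapped, and the log2 fold change was -0.029 with a 95% confidence interval of -0.20 to 0.14 (limma, adjusted p = 0.799). It was 0.042 without control 1 and 0.017 without knockdown 2. KLF1 spans bases 12884422 to 12887201 of chromosome 19, minus strand, and NFE2 spans bases 54292111 to 54301015 of chromosome 12, minus strand. LYL1 spans bases 13099033 to 13103161 of chromosome 19 and LMO2 bases 33858576 to 33892076 of chromosome 11, both on the minus strand. All are GRCh38 positions from GENCODE 44.

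**Figure D3:**
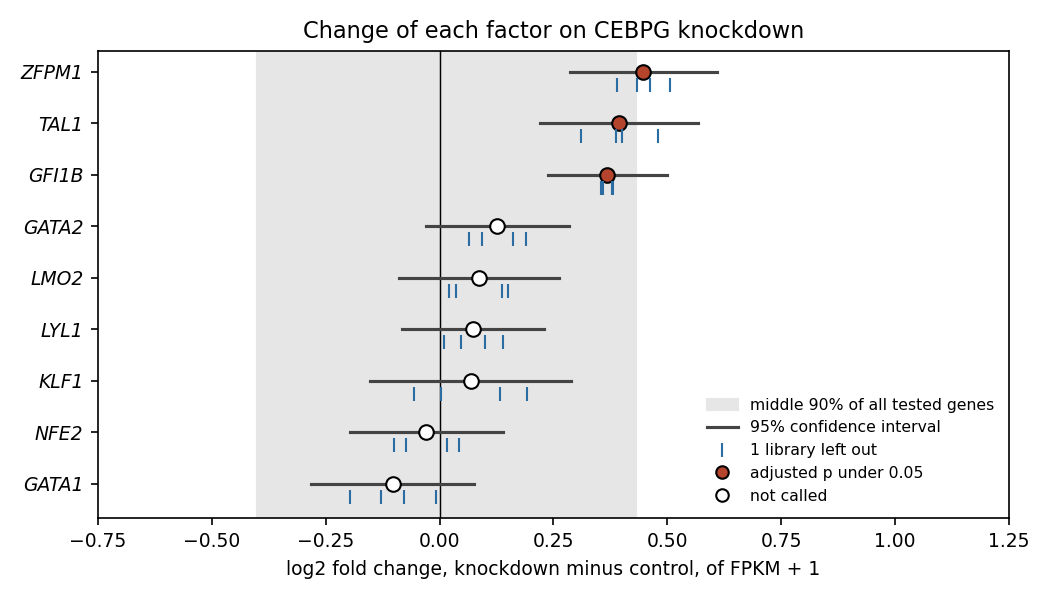
Log2 fold change (knockdown minus control, of FPKM + 1) of each factor with its 95% confidence interval from limma, the values with 1 library left out (blue ticks), and the range that holds the middle 90% of all tested genes (grey, -0.40 to 0.43). ZFPM1, TAL1 and GFI1B (filled) lie at 0.45, 0.39 and 0.37, and the intervals of the other 6 genes include 0.

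Of the 9 genes, 5 had more than 1 transcript in the table, and their transcripts did not all move with the gene total. For NFE2 the main transcript NM_001136023 was at 55.4 and 52.4 FPKM in the controls and at 64.9 and 56.7 FPKM in the knockdown, where both libraries were higher. NM_006163 was at 16.8 and 15.98 FPKM in the controls and at 5.20 and 9.18 FPKM in the knockdown. Its share of the NFE2 total was 21.2% and 22.3% in the controls against 6.83% and 12.8% in the knockdown, while the totals of the 2 groups overlapped. NM_006163 had a log2 fold change of -1.13, standard error 0.26 (limma over transcripts, adjusted p = 0.149), and it was the largest in size of any tested transcript of these genes.

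LMO2 was divided between 3 transcripts of similar level. NM_001142316 was at 7.30 and 5.43 FPKM in the controls and at 10.9 and 8.47 FPKM in the knockdown, and NM_005574 was at 6.45 and 6.51 FPKM in the controls and at 3.197 and 5.39 FPKM in the knockdown. These 2 transcripts lay on opposite sides of the controls, with log2 fold changes of 0.54 and -0.53 (limma over transcripts, adjusted p = 0.244 and 0.316). For GFI1B both transcripts were above the controls in both knockdown libraries. NM_004188 went from 27.8 and 25.5 FPKM to 35.05 and 28.7 FPKM, and NM_001135031 from 15.8 and 17.6 FPKM to 21.8 and 27.1 FPKM. The TAL1 transcript NM_001290403, with 70.5% to 82.9% of the TAL1 total, was at 17.99 and 16.5 FPKM in the controls and at 25.1 and 21.5 FPKM in the knockdown. The minor GATA2 transcripts changed places between the knockdown libraries. NM_001145662 was at 13.6 FPKM in knockdown 1 and 2.03 FPKM in knockdown 2, and NM_001145661 was at 0.204 and 9.03 FPKM. Over all tested transcripts only 25 of 15795 (0.158%) had an adjusted p under 0.05 (limma), and 0 of the transcripts of these genes did. Of the 9 transcripts with the highest mean of each gene, 3 had an unadjusted p under 0.05 (limma), those of ZFPM1, TAL1 and LMO2. Over all transcripts 3213 of 15795 did.

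**Figure D4:**
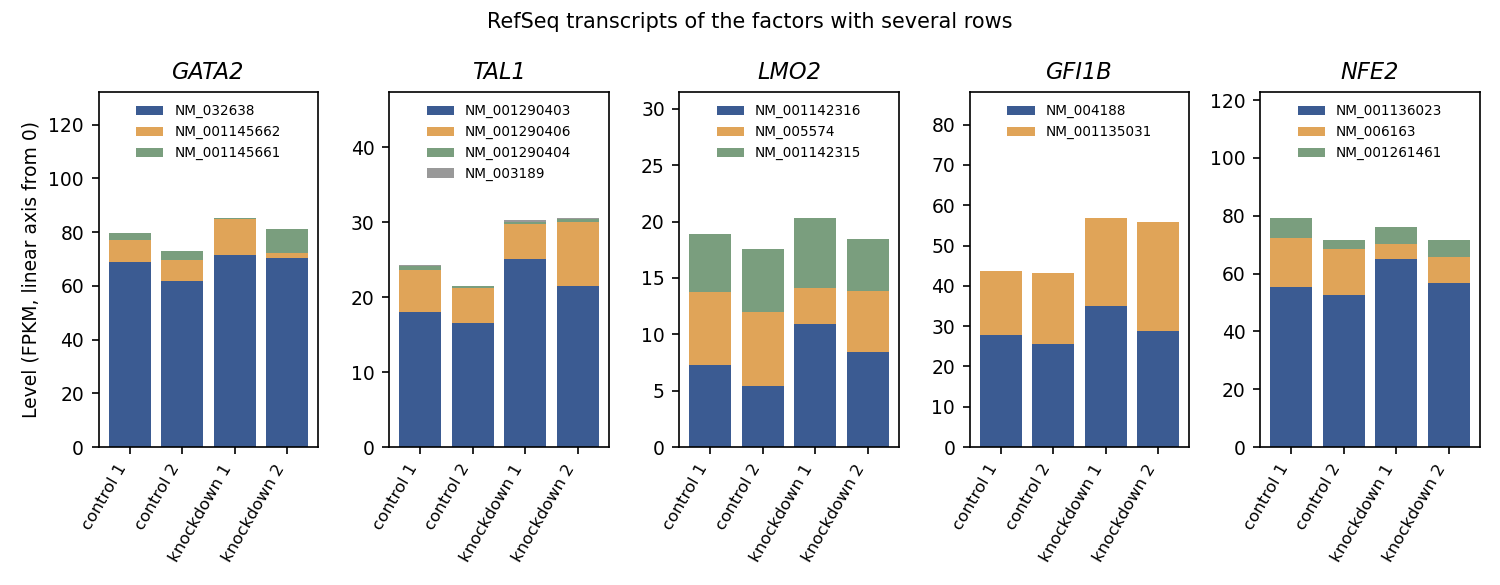
FPKM (linear axis from 0) of the RefSeq transcripts of GATA2, TAL1, LMO2, GFI1B and NFE2, stacked to the gene total, in each of the 4 libraries. NM_006163 takes a smaller part of the NFE2 bar in both knockdown libraries, and both GFI1B transcripts are higher there.

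The proteins that these factors bind were read from 4 lists with 51 genes, of which 50 were tested. KIT, the stem cell factor receptor, was at 0.92 and 1.07 FPKM in the controls and at 1.76 and 1.81 FPKM in the knockdown. Its control mean of 0.996 FPKM was under the filter of 1 FPKM, so it was tested only through its knockdown level and is left out of the counts. Of the other 49, 5 were called higher, 6 were called lower and 38 were not called, which is 22.4% called with a median log2 fold change of 0.013, against 20.9% and 0.015 over all tested genes. Calls in both directions depended on the libraries and the filter. The total of calls over all genes also fell when a library or the filter was left out. Over the full list, 0 genes were called higher and 1 lower without knockdown 1, and likewise 0 and 1 without knockdown 2 (limma, 17 and 12 at an unadjusted p under 0.05). Without control 1, 2 were called higher and 4 lower, without control 2 the counts were 2 and 7, and with no filter on low values they were 0 and 4 (limma, 19 at an unadjusted p under 0.05). With columns scaled to one sum, 5 were called higher and 9 lower. Over all genes the counts were 426 higher and 456 lower of 16504 with no filter (limma, 4441 at an unadjusted p under 0.05). They were 1249 and 1427 of 10964 with columns scaled to one sum. Among 12 partners of the TAL1 and LMO2 complex, 1 was higher and 1 lower, with a median of 0.010. SSBP3 and SSBP2 encode proteins that stabilize LDB1. SSBP3 fell from 31.1 and 29.7 FPKM to 23.1 and 24.4 FPKM (log2 fold change -0.34, limma adjusted p = 0.0128), and SSBP2 rose from 10.1 and 9.81 FPKM to 12.1 FPKM in both knockdown libraries (0.26, limma adjusted p = 0.031).

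Among 16 tested corepressors of GFI1B, ZFPM1 and related zinc-finger repressors, 1 was higher and 2 were lower, with a median of -0.060. That is 18.8% called, near the 20.9% over all tested genes. MTA2, a subunit of the NuRD complex, changed by 0.22 (limma, adjusted p = 0.0364). GATAD2A and RBBP4, also of NuRD, changed by -0.28 and -0.28 (limma, adjusted p = 0.0294 and 0.0291). Of the 6 partners and competitors of NFE2, 2 were higher and 1 was lower, with a median of 0.17. With 6 genes, this share cannot be set apart from the 20.9% over all tested genes. MAFG, a small MAF protein that pairs with NFE2, rose from 30.3 FPKM in both controls to 35.6 and 34.9 FPKM (0.21, limma adjusted p = 0.0412). NFE2L2, a relative of NFE2 known for the antioxidant response, changed by 0.26, and NFE2L1, another relative, by -0.29 (limma, adjusted p = 0.0233 and 0.0191).

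Of 15 other erythroid regulators, KIT left out, 1 was higher and 2 were lower, with a median of 0.013. That is 20% called, near the 20.9% over all tested genes. IKZF1, a zinc-finger factor of lymphoid and erythroid development, was at 15.6 FPKM in both controls and at 10.4 and 10.9 FPKM in the knockdown (-0.51, limma adjusted p = 0.00387). STAT5A, which carries the erythropoietin signal, was at 115.6 and 108.3 FPKM in the controls and at 85.4 and 84.7 FPKM in the knockdown (-0.39, limma adjusted p = 0.00678). ZBTB7A, a repressor of fetal globin, changed by 0.29 (limma, adjusted p = 0.0399).

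Regulators of other blood lineages were mostly low. Of the 13 listed, 8 were measured and 3 passed the filter, with 0 called higher and 2 called lower, against 20.9% called and 9.99% called lower over all tested genes. With 3 genes tested, the share of these regulators cannot be set apart from that of all genes. SPI1, known to oppose GATA1, was at 15.6 and 15.2 FPKM in the controls and at 17.1 and 17.2 FPKM in the knockdown (0.15, 95% confidence interval 0.0013 to 0.29, limma adjusted p = 0.132). MEIS1, a homeobox factor of early progenitors, was at 2.33 and 2.43 FPKM in the controls and at 1.70 and 1.13 FPKM in the knockdown (-0.50, limma adjusted p = 0.0437), and TCF7, a T-cell factor, changed by -0.49 (limma, adjusted p = 0.0175). Without control 1, and again without knockdown 2, 0 were called (limma, 2 at an unadjusted p under 0.05 in each case), and refits without control 2 or without knockdown 1 called 1 gene each.

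Red cell genes that GATA1, KLF1 or TAL1 are known to bind were called in both directions. The counts of both directions fell when a library or the filter was left out, and so did the total of calls over all genes. Of 30 listed, 23 were tested, with 4 called higher, 5 called lower and 14 not called, a share of 39.1% called and a median of -0.022, against 20.9% called (10.9% higher and 9.99% lower) and 0.015 over all tested genes. Without knockdown 1, 0 of them were called higher and 2 lower, and without knockdown 2, 0 and 3 (limma, 8 and 9 at an unadjusted p under 0.05). Without control 1 the counts were 2 and 3, without control 2 they were 3 and 3, and with no filter on low values they were 0 and 3 (limma, 13 at an unadjusted p under 0.05). With columns scaled to one sum, 3 were called higher and 7 lower. Over all genes, 426 were called higher and 456 lower of 16504 with no filter (limma, 4441 at an unadjusted p under 0.05). With columns scaled to one sum the all-gene counts were 1249 and 1427 of 10964. HBZ, the embryonic alpha-type globin, fell from 384.9 and 358.4 FPKM to 208.5 and 209.5 FPKM (-0.83, limma adjusted p = 0.000959). ALAS2, the first enzyme of heme synthesis in red cells, fell from 23.0 and 19.3 FPKM to 13.1 and 11.6 FPKM (-0.73, limma adjusted p = 0.00485). The fetal globins HBG1 and HBG2 changed by 0.36 and 0.28 (limma, adjusted p = 0.0132 and 0.0487), and because they are near-identical copies the division between them is uncertain. KEL, a blood group gene, changed by 0.42 and the survival gene BCL2L1 by 0.30 (limma, adjusted p = 0.0358 and 0.0196). HBE1, the embryonic beta-type globin, was not called (log2 fold change 0.11, limma adjusted p = 0.308). HBB, the adult globin that KLF1 activates, was at or under 0.666 FPKM in every library and was not tested.

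**Figure D5:**
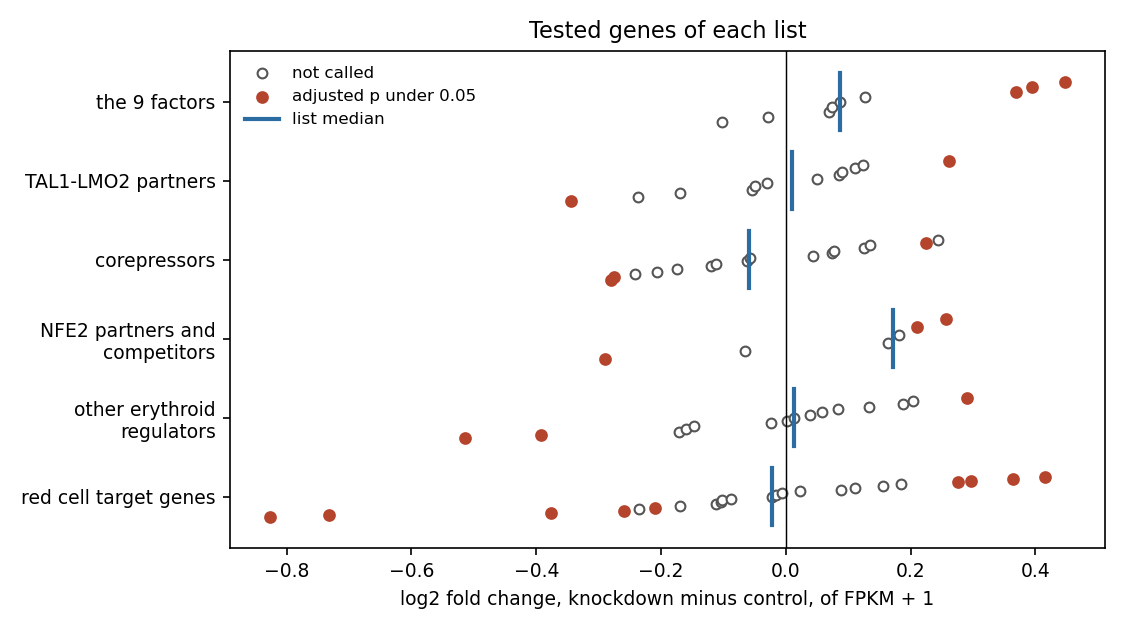
Log2 fold change (knockdown minus control, of FPKM + 1) of the tested genes in each list, with genes of adjusted p under 0.05 in limma filled and the list median in blue, KIT left out. The 3 filled factors lie on the higher side, whereas each of the 5 other lists plotted has filled genes on both sides of 0.

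Values of other markers moved between the groups beside these results. The megakaryocyte marker ITGA2B was at 5.89 and 5.02 FPKM in the controls and at 8.06 and 7.24 FPKM in the knockdown (0.42, limma adjusted p = 0.0241). TUBB1, the other tested marker of that list, went the other way without a call. It was at 2.13 and 2.17 FPKM in the controls and at 1.58 and 1.96 FPKM in the knockdown (-0.19, limma adjusted p = 0.26). The sum of the 6 megakaryocyte markers went from 8.88 and 8.47 FPKM to 11.4 and 10.7 FPKM. CD3D changed by 0.88 (limma, adjusted p = 0.0018), while CD2 and CD3E were each listed at 0 in 2 libraries. Of the 3 tested granule markers, 1 was higher (CFD, 0.39) and 2 were lower (LYZ, -0.30, and PRG2, -0.29, limma, adjusted p = 0.0158, 0.0289 and 0.0356). With 3 tested, their share cannot be set apart from the 20.9% called over all tested genes. Neither of the 2 tested myeloid surface markers and regulators was called. CD33 was at 4.31 and 7.57 FPKM in the controls and at 9.77 and 9.41 FPKM in the knockdown (0.65, limma adjusted p = 0.0603). The sum of the 11 measured went from 22.4 and 25.2 FPKM to 29.6 and 29.5 FPKM. Of the 20 erythroid markers, 17 are also in the list of bound genes. Of the 16 tested, 3 were higher and 4 lower, against 10.9% higher and 9.99% lower over all tested genes. The part of these markers in the values of the 9 factors was not tested.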

How the data were processed

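The 4 libraries, 2 per group, were profiled by RNA-seq. Per the labels, total RNA was made into libraries with an Illumina TruSeq kit, and the submitters' processing notes name HISAT2 2.0.5 and the build hg38. The authors deposited a table of FPKM values for 29265 RefSeq transcripts. The program that computed FPKM and the annotation release are not given in the sources used here. FPKM values hold no read counts, so depth was unknown.

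Rows without a symbol (164, with 0.25% of FPKM) were left out, as were 183 rows without values, and the remaining transcripts were added up per symbol, which gave 16504 genes. Genes averaging at least 1 FPKM were tested in limma 3.58.1 (R 4.3.3) on log2(FPKM + 1), a scale that understates the change of low genes, with a mean trend and 2-sided tests, adjusted after Benjamini and Hochberg over all tested genes, without a block for the replicate number. The fit was tested on simulated data. Named genes were the measured factors, CEBPG, genes of each list with an adjusted p under 0.05 (at most 4 per direction), HBG1, HBG2, HBE1, HBB and SPI1, apart from 1 listed gene that is not reported here. The genes studied and the lists, written from general knowledge, were chosen with earlier results of these data known. Markers without a call and genes whose exons overlap a factor were named after their values were seen. Positions came from GENCODE 44 and promoters from RefSeq (GRCh38.p14), both of the build the labels name. Alternatives were another pseudocount, other filters, 2 other scalings, no trend, transcripts in place of genes, a replicate block and omission of single libraries.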

Additional observations from a re-analysis of the deposited data

How the results depend on the processing

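Of the 9 factors, GATA1, GATA2, LYL1 and LMO2 kept their direction and stayed without a call under all 12 alternatives. ZFPM1, TAL1 and GFI1B kept their direction under the same 12, and the calls that were lost were 1, 4 and 2, of which 1 each came with transcripts in place of genes. KLF1 ranged from -0.056 to 0.19 and NFE2 from -0.10 to 0.042 when 1 library was left out, and NFE2 was at 0.17 as its main transcript, so neither had a stable sign. The count of 3 factors called was lower when a knockdown library was left out, and was 0 with transcripts in place of genes. There the main transcripts of ZFPM1, TAL1 and LMO2 had an unadjusted p under 0.05 (limma), and that of GFI1B did not. Over all genes, 2288 calls became 882 with no filter, 25 with transcripts, 3440 with the replicate block and 809 to 1931 with 1 library left out. Partner genes called, KIT included (12), became 11 without KIT, an alternative chosen after seeing the data, 4 with no filter, 6 without a trend and 1 to 9 with 1 library left out. Bound genes called (9) became 3 with no filter and 2 to 6 with 1 library left out. Regulators of other lineages called (2) became 1 with a pseudocount of 0.1, 0 with no filter (limma, 3 at an unadjusted p under 0.05), 0 at a mean of at least 5 FPKM, where 1 gene was tested, and 0 to 1 with 1 library left out. With 1 library left out, the lone library of its group is assumed to vary like the other pair. The labels tie the shared replicate numbers to no culture or day, and libraries with the same number deviated from their group means with a correlation of 0.101 across 10968 genes, so the numbers were not taken as a pairing. The block left 3 factors called. Apart from fewer samples or another number of genes tested, the cause of these shifts was not tested. Scaling moved the median of all genes by less than 0.1 on the log2 scale.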
